A study of Mus musculus with 2 samples.

Results

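Lefty1, Lefty2, Nodal and Tdgf1 are 4 genes of the Nodal signalling pathway. They were chosen by name, and all POU5F1 peaks within 50 kb of an annotated transcript start of any of them are described. On the mouse genome build mm9 there were 5 of the 5515 peaks of the whole-series list, near 4 of 22238 protein-coding genes. The peaks came from chromatin immunoprecipitation and sequencing (ChIP-seq), in which DNA bound by a protein is pulled down with an antibody and sequenced. The antibody was against POU5F1, the POU-domain transcription factor also known as OCT4. The cells were E14TG2a.4, an embryonic stem cell line from a male mouse of strain 129/Ola, with no treatment or genetic change named in the labels. The series holds 1 group of 2 biological replicates of this 1 line, both with the same donor, so no other cell type, condition or line enters.

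Nodal is a secreted ligand of the TGF-beta family that acts through activin receptors and needs an EGF-CFC co-receptor, the best known of which is Cripto, the product of Tdgf1. The receptors phosphorylate SMAD2 and SMAD3, which join SMAD4 and reach DNA with partners such as FOXH1. Lefty1 and Lefty2 are secreted antagonists that are themselves switched on by the pathway and so restrain it. In mouse embryonic stem cells the pathway is active, and all 4 genes are known to be expressed there. The data hold occupancy only and no RNA.

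On mm9 there are 3 deposited lists, 1 for the whole series (5515 peaks), 1 for replicate 1 (1330) and 1 for replicate 2 (6324). On mm10 the optimal list holds 3994 peaks and the conservative one 2676. The mm10 lists had been filtered by the irreproducible discovery rate, a procedure that keeps peaks ranked alike in parallel measurements. Each peak carries 1 deposited signal, whose scaling is not stated, so ranks within a list were used, with the highest signal as rank 1. The depth of the libraries is unknown.

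The 5 peaks split by gene as 3 at the Lefty locus, 1 at Nodal and 1 at Tdgf1. For each peak the stretch around its matches marked below is shown, or the central 100 bases where it had none, as at Nodal. The stretches were thus cut to hold these matches and are not always centred on the peak. All are written 5′ to 3′ on the plus strand of mm9. Capitals mark exact matches to the octamer, the classical POU site, exact matches to a FOXH1 site, and the closest match to the composite SOX-POU element where it had at most 4 mismatches.
Lefty2 upstream peak, chr1:182818937-182819134: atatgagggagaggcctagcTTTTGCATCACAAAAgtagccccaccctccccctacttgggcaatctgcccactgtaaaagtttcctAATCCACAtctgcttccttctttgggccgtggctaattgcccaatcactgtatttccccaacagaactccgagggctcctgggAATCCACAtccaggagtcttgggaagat
Lefty1 distal peak, chr1:182854925-182855102: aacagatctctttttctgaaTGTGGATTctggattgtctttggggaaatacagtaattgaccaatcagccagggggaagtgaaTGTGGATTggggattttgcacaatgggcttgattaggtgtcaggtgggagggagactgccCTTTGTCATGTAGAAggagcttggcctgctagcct
Lefty1 proximal peak, chr1:182863980-182864167: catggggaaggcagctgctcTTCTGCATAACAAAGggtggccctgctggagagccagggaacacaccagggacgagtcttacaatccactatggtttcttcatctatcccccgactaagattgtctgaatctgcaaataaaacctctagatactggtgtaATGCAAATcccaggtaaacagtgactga
Nodal peak, chr10:60878764-60878863: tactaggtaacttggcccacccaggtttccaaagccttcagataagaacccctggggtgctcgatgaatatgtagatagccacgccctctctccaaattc
Tdgf1 peak, chr9:110862842-110862941: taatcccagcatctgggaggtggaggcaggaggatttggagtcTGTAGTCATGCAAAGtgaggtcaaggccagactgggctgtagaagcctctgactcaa
The stretches of the Lefty2 upstream and Lefty1 distal peaks each carry 2 FOXH1 matches, which stand on the plus strand in the first (AATCCACA) and on the minus strand in the second (read as TGTGGATT). The Lefty1 proximal stretch carries the only exact octamer, ATGCAAAT, and the 100 bases at the centre of the Nodal peak have no capitals.

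Lefty2 and Lefty1, the antagonists, lie in the same orientation on chromosome 1 with main transcript starts at 182823239 and 182865153, 41.9 kb apart. All 3 peaks of the locus were therefore within 50 kb of both genes, and this held in the whole-series list and in each replicate list. The Lefty2 upstream peak was centred 4267 bp upstream of Lefty2 (chr1:182818707-182819238), which is 46.2 kb upstream of Lefty1. The Lefty1 distal peak lay between the genes, 10094 bp upstream of Lefty1 and 31.8 kb downstream of the Lefty2 start (chr1:182854793-182855325). The Lefty1 proximal peak was 1136 bp upstream of Lefty1 and 40.8 kb downstream of the Lefty2 start (chr1:182863704-182864331). All 3 were intergenic in the GENCODE M1 annotation. The centres of the Lefty2 upstream and Lefty1 proximal peaks were 45045 bp apart, and the centres of the 2 nearer to Lefty1 were 8.96 kb apart. No peak centre fell inside either gene.

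The peak next to Lefty1 was the strongest of the 5. Its whole-series signal was 19.38, rank 32 of 5515, with a deposited −log10 p of 139.793. Its signal was 16.18 in the list of replicate 1, rank 28 of 1330, and 31.74 in that of replicate 2, rank 41 of 6324. Both replicates thus placed it near the top of their lists.

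The Lefty2 upstream and Lefty1 distal peaks had the same whole-series signal, 11.16, and shared rank 253, with −log10 p of 53.56 and 58.535. The replicates placed them differently. For the Lefty2 upstream peak the signal was 6.22 in replicate 1 (rank 904) and 21.92 in replicate 2 (rank 140). The Lefty1 distal peak had 6.84 in replicate 1 (rank 665) and 21.16 in replicate 2 (rank 160). By signal the Lefty2 upstream peak was in the lower part of the replicate 1 list and the Lefty1 distal peak in its middle, and both were near the top of the longer replicate 2 list. By −log10 p they stood higher in replicate 1, at ranks 405 and 276 of 1330, and at ranks 158 and 173 in replicate 2. With the same 1209 whole-series peaks ranked by signal in both replicates, namely those that overlapped a peak of each replicate list by at least 1 bp, the Lefty2 upstream peak was 844th in replicate 1 and 138th in replicate 2. On that footing the Lefty1 distal peak was 623rd and 158th, and the Lefty1 proximal peak 28th and 41st. By signal the gap between replicates was thus wider for these 2 peaks than for the proximal one. With 1 library on each side there is no test of these gaps.

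The Lefty peaks also lay near other genes. Tmem63a, a membrane channel gene, starts 8.46 kb from the proximal peak and 17.4 kb from the distal one. BC031781 starts 37.7 kb from the Lefty2 upstream peak. The nearest protein-coding start was Lefty2 for the Lefty2 upstream peak and Lefty1 for the other 2.

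Nodal, the ligand, starts at position 60880720 of chromosome 10 and had 1 peak within 50 kb, in intergenic sequence centred 1906 bp upstream of the start (chr10:60878585-60879044, 460 bp). Its whole-series signal was 9.98, rank 389, with −log10 p of 32.563. The signal was 7.47 in replicate 1 (rank 476) and 16.63 in replicate 2 (rank 399). Among the 1209 peaks of both lists it was 454th in replicate 1 and 364th in replicate 2, so the replicates placed it in the upper middle alike. By −log10 p in place of signal its whole-series rank was 599. The other gene starts within 50 kb of it were those of X99384 at 32.5 kb and Eif4ebp2, a translation repressor, at 36.6 kb.

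Tdgf1, the co-receptor gene, starts at position 110848662 of chromosome 9 on the minus strand. Its only peak within 50 kb was centred 14229 bp upstream (chr9:110862736-110863047, 312 bp), in an intron of Lrrc2, whose start was closer at 8842 bp. This was the weakest of the 5, with a whole-series signal of 5.58, rank 2471, equal to the median of that list, and a −log10 p of 11.196. The replicate 1 list holds no peak there. In the replicate 2 list the signal was 9.07, rank 2517, with a q-value of 0.0008. No peak of any mm9 list lay within 10 kb of the Tdgf1 start.

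**Figure D1:**
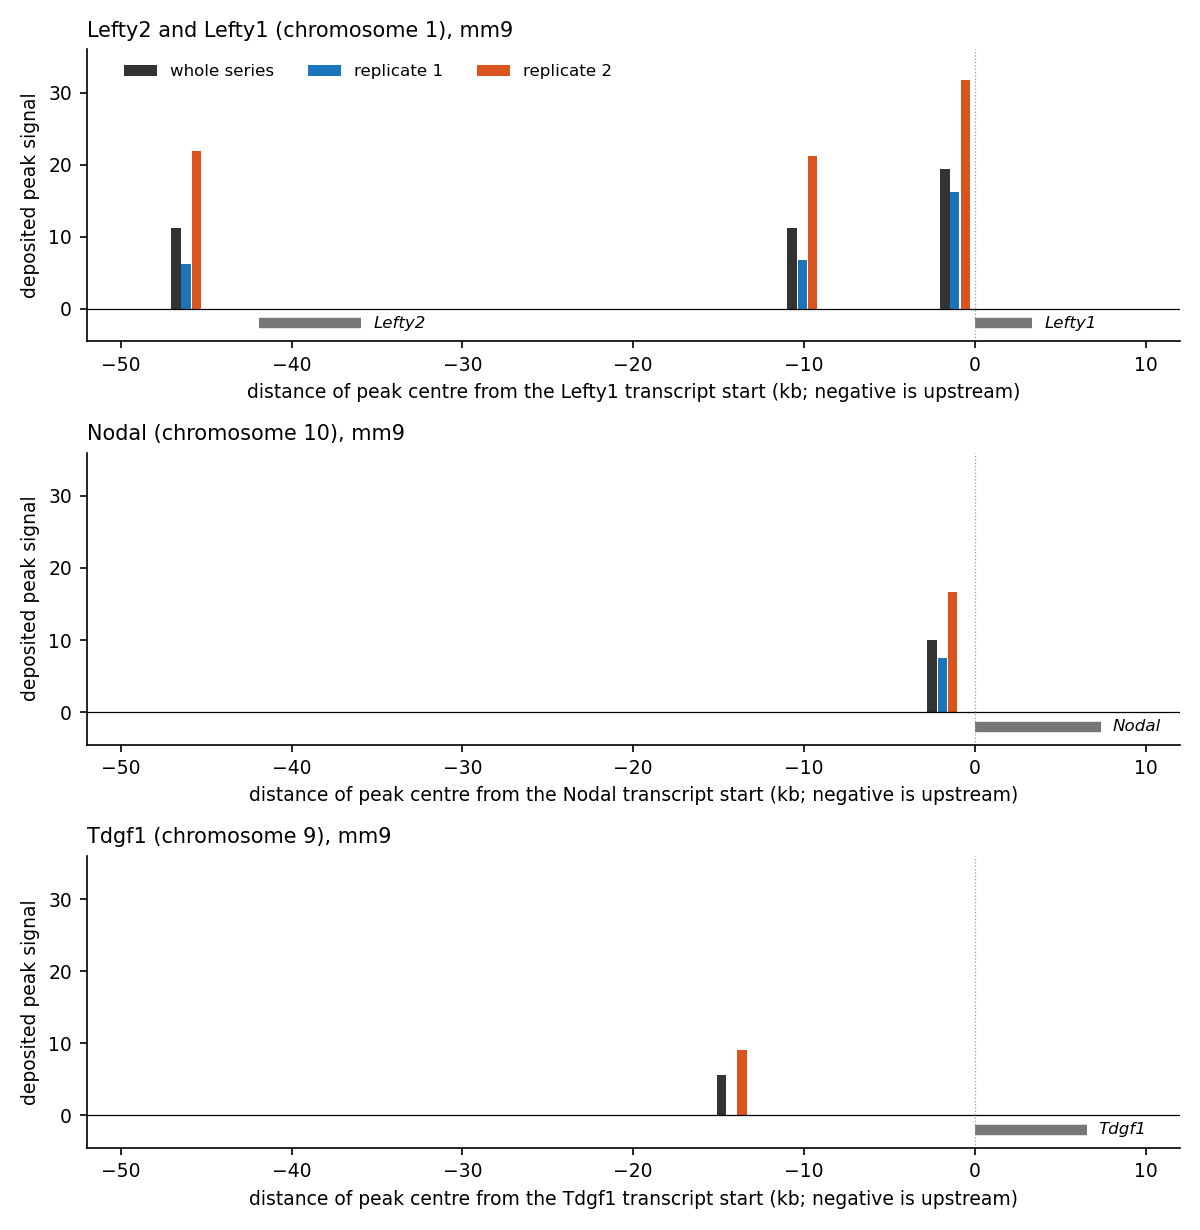
Deposited signal (vertical axis) of the mm9 peaks against the distance of the peak centre from the transcript start in kb (horizontal axis) at the Lefty locus, Nodal and Tdgf1; bars of the 3 lists are drawn side by side at each peak, grey blocks are the genes, and the scale of the signal is not the same in the 3 lists. The Lefty locus has 3 peaks in each list, Nodal has 1 upstream of its start, and Tdgf1 has 1 with no replicate 1 bar.

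**Figure D2:**
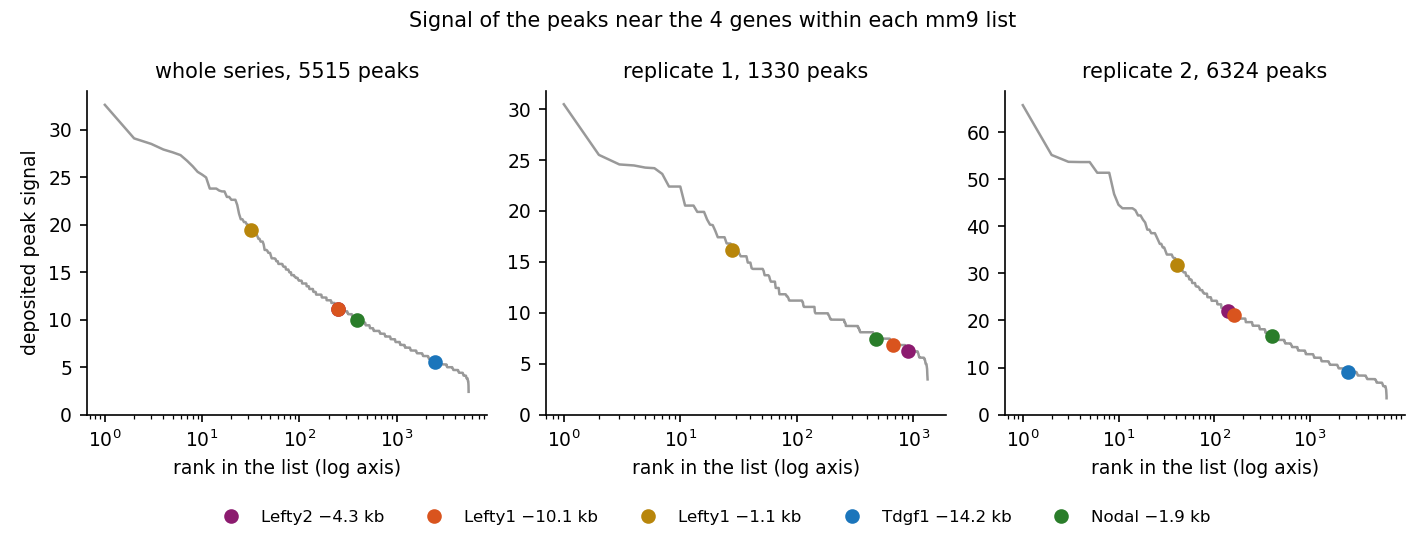
Signal against rank (log axis) for all peaks of the 3 mm9 lists (grey lines), with the peaks near the 4 genes as coloured points, each named by its distance from the start. The Lefty1 proximal peak is at rank 32, 28 and 41, and the points of the Lefty2 upstream and Lefty1 distal peaks coincide at rank 253 in the whole-series panel.

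Set against the annotation, 4 of 4 genes had a whole-series peak within 50 kb, where 27.3% of all protein-coding genes did. In the replicate 1 list 3 of 4 did, all but Tdgf1, beside 8.15% of all genes, and in the replicate 2 list 4 of 4 did, beside 30.1%. At least 3 whole-series peaks within 50 kb, as at Lefty1 and Lefty2, were found for 327 genes (1.47%). A strongest peak of at least the 19.38 of the Lefty genes was found for 74 of the 6064 genes near a peak (1.22%). The corresponding share was 9.68% for the 9.98 of Nodal and 58.1% for the 5.58 of Tdgf1. Lefty1 and Lefty2 share all their peaks, so they are 1 locus and not 2 independent cases. On either side of the 50 kb limit, the Lefty2 upstream peak was 46.2 kb from Lefty1, and the next whole-series peak outside was 93.3 kb downstream of the Tdgf1 start, with a signal of 5.29.

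Of the 5 peaks, 4 overlapped a peak in both replicate lists and the Tdgf1 peak overlapped one in replicate 2 only. Over the whole series, 1209 of 5515 peaks were in both lists (21.9%, 95% Clopper-Pearson interval 20.8 to 23.0) and 3575 in replicate 2 only (64.8%, 63.5 to 66.1). Those in both had a median whole-series signal of 8.63, below that of the Nodal peak and the 3 Lefty peaks. Those in replicate 2 only had a median of 5.29, close to the 5.58 of the Tdgf1 peak. For scale, the strongest whole-series peak near Pou5f1, the gene of the immunoprecipitated factor, had a signal of 27.9, that near Sox2, its partner on the composite element, 19.09, and that near Nanog, another pluripotency factor, 9.96. In whole-series signal the Lefty1 proximal peak was thus level with the Sox2 peak and the Nodal peak with the Nanog peak. By −log10 p the Lefty1 proximal peak stood above the Sox2 peak (139.793 and 102.524). The Nodal peak stood below the Nanog peak (32.563 and 52.927).

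**Figure D3:**
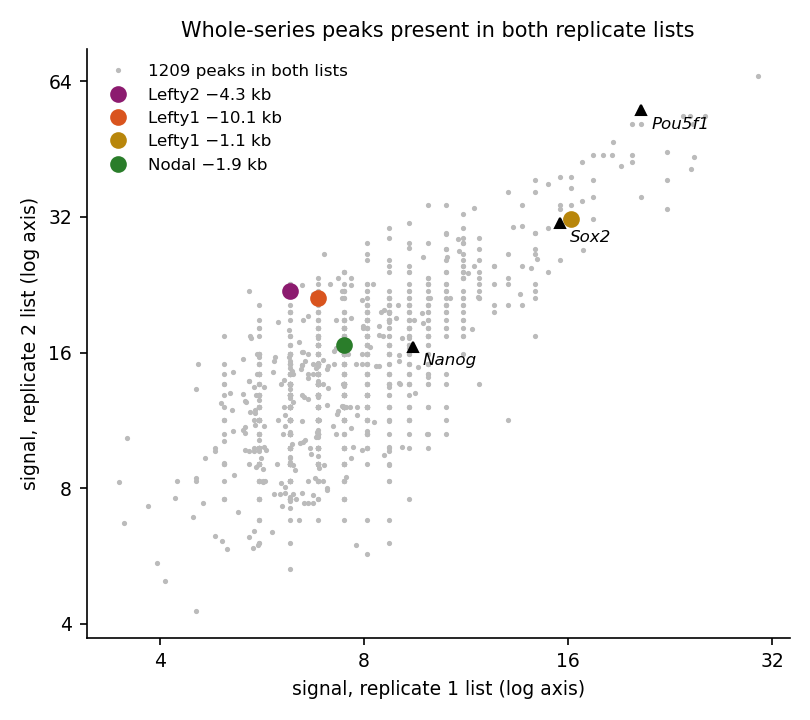
Signal in the replicate 2 list (vertical, log axis) against signal in the replicate 1 list (horizontal, log axis) for the 1209 whole-series peaks found in both (grey), with the Lefty and Nodal peaks coloured and the peaks near Pou5f1, Sox2 and Nanog as triangles. The Lefty1 proximal peak (16.18 and 31.74) lies beside the Sox2 peak. The Lefty2 upstream and Lefty1 distal peaks lie at the upper edge of the cloud, at replicate 1 signals of 6.22 and 6.84.

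On mm10 the optimal and conservative lists held the same 4 peaks near these genes, at the same ranks, and none near Tdgf1. This is 3 of 4 genes, beside 18.9% of protein-coding genes for the optimal and 13.3% for the conservative list. The summits, the single bases of highest signal, were 1161 bp upstream of Lefty1 (chr1:180933748-180933978), 4269 bp upstream of Lefty2 (chr1:180888763-180888909), 10050 bp upstream of Lefty1 (chr1:180924804-180925139) and 1868 bp upstream of Nodal (chr10:61416050-61416147). Each of these distances was within 50 bp of that on mm9, although the peaks were narrower, 231, 147, 336 and 98 bp in that order. The optimal-list signals were 223, 111, 90.0 and 82.0, at ranks 29, 153, 283 and 364 of 3994. The order was that of the mm9 whole-series list, with the tie of the Lefty2 upstream and Lefty1 distal peaks split.

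Relaxed mm10 lists of peaks and background, 300000 entries for each replicate and for the pool, gave replicate ranks free of a peak threshold. The Lefty1 proximal peak was 21st in replicate 1 and 34th in replicate 2. The Lefty2 upstream peak was 258th and 142nd, the Lefty1 distal peak 493rd and 226th, and the Nodal peak 303rd and 374th. All 4 therefore stood at rank 493 or higher of 300000 entries in either replicate. The gap in signal rank between replicates at these 2 weaker Lefty peaks in the mm9 lists was narrower here, and the order of the Lefty2 upstream and Lefty1 distal peaks was the same in both replicates.

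At Tdgf1 the relaxed lists showed no entry of similar standing. The highest within 50 kb in replicate 1 was 49.8 kb downstream of the start, at rank 4641 with a signal of 12.6. In replicate 2 it was 1777 bp upstream, at rank 10473 with a signal of 11.9. In the pool it was 1112 bp upstream, at rank 6186 with a signal of 21.5. The replicates thus had their highest entries in different places. At 14.2 kb upstream, the distance of the mm9 peak, there was an entry at rank 264413 in replicate 1 and 17467 in the pool. Replicate 2 had no entry at that distance. Its closest were 13.8 kb upstream (rank 104363) and 15.2 kb upstream (rank 122886). Near Nodal the second-highest entry of each list also stood far below the peak, and not at the same place in all. It was 8.73 kb upstream in replicate 1 (rank 4994). In replicate 2 (rank 3367) and in the pool (rank 2957) it was 42.5 kb upstream. Each gene had 22 to 41 relaxed entries within 50 kb per list, from lists that include background by design.

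The peak sequences were searched on both strands for 12 motifs: the composite SOX-POU element with up to 2 mismatches, and, with none, the octamer ATGCAAAT, the POU dimer elements MORE and PORE, SOX (CATTGT), FOXH1 (AATCCACA), the SMAD repeat (CAGACAG), the SMAD palindrome (GTCTAGAC), TEAD (GGAATG), KLF (GGGTGTGGC), ESRRB (TCAAGGTCA) and STAT (TTCCNGGAA). The composite element contains sequence close to the SOX and octamer motifs, and PORE contains the octamer, so these can overlap. A match is a string of letters and no measure of binding.

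None of the 5 peaks held the composite element with up to 2 mismatches, MORE or PORE. The composite was found in 9.99% of the 5515 whole-series peaks and in 0.145% of stretches of equal length shifted by 2 kb. The octamer was present in 1 of the 5, the Lefty1 proximal peak, at chr1:182864140-182864147, 126 bp to the Lefty1 side of the peak centre. It was found in 828 of all 5515 peaks and in 2.56% of shifted stretches. In windows of the same 628 bp as that peak the shares were 16.0% and 4.03%. The strongest of the 5 was thus also the one with an exact POU site, and the site lay off the centre.

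The closest composite match stood nearer the centre. In the Lefty1 proximal peak it had 3 mismatches and lay 10 bp from the centre, 1146 bp upstream of the start, beside the mm10 summit at 1161 bp. Matches with up to 3 mismatches were in 31.0% of all peaks and 2.39% of shifted stretches. The closest match had 4 mismatches in the Lefty2 upstream peak (8 bp from the centre), in the Lefty1 distal peak (16 bp) and in the Tdgf1 peak (0 bp), a degree of likeness found in 63.6% of peaks and 20.0% of shifted stretches. In the Nodal peak nothing came closer than 6 mismatches. An octamer with 1 mismatch was in the Lefty2 upstream peak (ATGCAAAA) and in the Tdgf1 peak (ATGCAAAG), inside the closest composite match in both. One was also in the Lefty1 proximal peak (CTGCAAAT), 96 bp from the centre, beside its exact octamer. Over the whole series, 61.4% of all peaks and 34.9% of shifted stretches held an octamer with at most 1 mismatch, exact octamers included.

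FOXH1 is the DNA-binding partner through which SMAD2 and SMAD3 reach many Nodal target genes. Its motif was present 2 times in the Lefty2 upstream peak, at chr1:182819024-182819031 and chr1:182819107-182819114, 83 bp apart. It was also present 2 times in the Lefty1 distal peak, at chr1:182854945-182854952 and chr1:182855008-182855015, 63 bp apart. Both peaks also held 1 SMAD repeat outside the FOXH1 pair, on the side away from the peak centre. The FOXH1 motif was in 102 of 5515 peaks (1.85%, 95% interval 1.51 to 2.24) and in 1.40% of shifted stretches. At the fixed width of 533 bp it was in 2.61% of peaks and 2.49% of shifted stretches, so it was about as frequent in the peaks as beside them. The SMAD repeat was in 10.3% of peaks and 10.9% of shifted stretches, and at 533 bp in 14.1% and 14.9%.

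At least 2 FOXH1 matches occurred in 3 of 5515 peaks (0.0544%), and 2 of the 3 were these Lefty peaks. This count was made after the matches had been seen. The third peak lay 47.1 kb from Ncam1, a neural adhesion gene, with a signal of 4.33 and its matches 93 bp apart. In windows of 533 bp around every centre, 6 peaks had 2 or more matches (0.109%), the other 3 being nearest to A830018L16Rik, Zfp11 and Pdzd4, none with a signal above 4.57.

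The remaining matches were single. The Lefty1 distal peak held 1 SOX motif, found in 26.5% of peaks and 19.5% of shifted stretches. The Lefty1 proximal peak held 1 TEAD motif, found in 26.7% and 19.1%. The Nodal and Tdgf1 peaks held none of the 12 motifs within the limits set. The SMAD palindrome (0.490% of all peaks), KLF (1.16%), ESRRB (2.30%) and STAT (1.78%) motifs were in none of the 5.

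**Figure D4:**
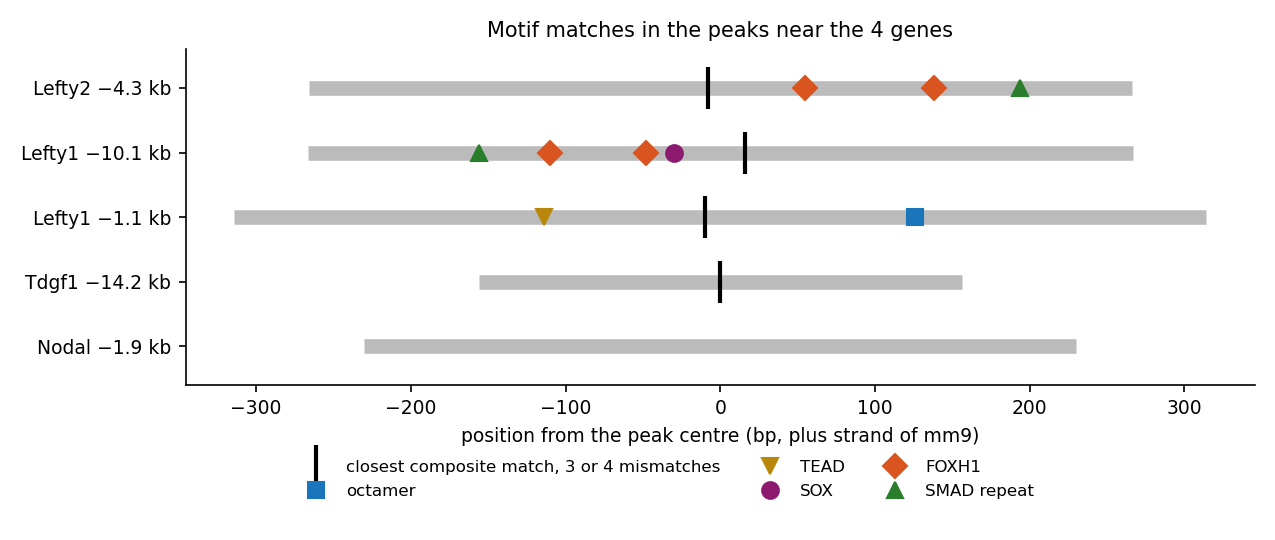
Position of motif matches in bp from the peak centre (horizontal axis, plus strand of mm9) for the 5 peaks (grey bars, drawn to their length). The closest composite match, where it had 3 or 4 mismatches, lies within 16 bp of the centre of 4 peaks, 2 FOXH1 matches and 1 SMAD repeat lie in each of the Lefty2 upstream and Lefty1 distal peaks, and the octamer lies off the centre of the Lefty1 proximal peak.

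Lefty1 and Lefty2 are close paralogs: their main transcripts, of 1620 and 2473 bp, aligned over 1159 bp at 91.199% identity. Reads from such sequence can be hard to assign to one copy. The 3 Lefty peaks lay outside it. None of them, nor the Nodal peak, had any other alignment in the mm9 genome with BLASTN at an e-value of 1e-05 or lower, and no Lefty peak aligned to the locus of the other Lefty gene. The Tdgf1 peak differed. It had 695 other alignments, which together covered 156 of its 312 bp in 1 stretch (chr9:110862811-110862966), with the highest-scoring one 76.923% identical over 117 bp. Of these, 2 were at least 95% identical over 36 bp or more. The covered part holds the closest composite match printed above. No source here says how the authors treated reads that map to several places, and the part of repeated sequence in the Tdgf1 result was not tested.

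Although no longer alignment joined them, the Lefty2 upstream and Lefty1 distal peaks shared an exact run of 15 bases, ACTGTATTTCCCCAA, in opposite orientation. It lies between the FOXH1 matches in both, at chr1:182819070-182819084 and chr1:182854964-182854978. Of the 5514 other whole-series peaks, 7 (0.127%) shared a run of at least that length with the Lefty2 upstream peak, and the median was 9 bases. The Lefty2 upstream and Nodal peaks shared 13 bases (82 peaks, 1.49%), and every other pair among the 5 shared 8 to 10. The GC content was 56.4% in the Lefty2 upstream peak and at most 52.4% in the other 4, all above the median of 46.0% and the upper quartile of 49.6% of all peaks.

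Beyond the 4 genes, a list of 36 other genes of the Nodal and activin pathway and its targets was examined. Of these, 14 (38.9%) had a whole-series peak within 50 kb, beside 27.3% of all genes. There were 8 (22.2%) near a replicate 1 peak, beside 8.15%, and 15 (41.7%) near a replicate 2 peak, beside 30.1%. The median signal of the strongest peak was 7.04 over the 14, beside 5.87 over all genes near a peak. The strongest peak was in both replicate lists for 7 of the 14, and 12 of the 14 were the gene nearest to it.

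Among ligands, Gdf3, a Nodal-like ligand of stem cells, had 2 peaks, the stronger 1477 bp downstream of its start with a signal of 12.33, and 9.33 and 20.41 in replicates 1 and 2. Inhbb, an activin subunit gene, had 2 peaks, the stronger 31.6 kb upstream (12.04) and nearer to Ralb. Inhba, the other activin subunit gene, had one 18.2 kb downstream of its start (4.99), in replicate 2 and not in replicate 1. Of the receptors and processing enzymes, Acvr1c, which encodes the receptor ALK7, had a peak with a signal of 5.29 and Pcsk6, a proprotein convertase, one of 4.99, both in replicate 2 only. The receptor genes Acvr1b, Acvr2a, Acvr2b and Tgfbr1 and the co-receptor gene Cfc1 had none in the whole-series list, although Cfc1 had 1 in the replicate 2 list.

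Of the DNA-binding partners, Foxh1 had a peak over its own start, centred 105 bp downstream, with a signal of 9.40 and 7.47 and 15.12 in the replicates. Smad4 had one 11.7 kb upstream (4.99, replicate 2 only), and Smad2 and Smad3 had none in any mm9 list. Negative regulators held the strongest peak outside the Lefty locus: Skil, which encodes the SMAD corepressor SnoN, had a peak 5529 bp upstream with a signal of 18.21, rank 40, and 13.69 and 34.01 in the replicates. The inhibitory Smad7 had one 6494 bp upstream (7.33, both replicates). The corepressor gene Tgif1 had 2 peaks, the stronger 13.2 kb upstream (7.94, replicate 2 only). The replicate 1 list also held 1 peak within 50 kb of Tgif1, away from that stronger peak. The antagonist genes Cer1, Dand5 and Fst had none in the whole-series list, although Dand5 had 1 in the replicate 2 list.

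Target genes of the early embryo were mostly without a peak or low. Trh, which encodes thyrotropin-releasing hormone, had one 1926 bp upstream (8.52, both replicates). Mesp1, a mesoderm regulator, had one 24.8 kb upstream and nearer to Mesp2 (6.75), Gsc one 20.2 kb downstream of its start (4.99) and the brachyury gene T one 4272 bp upstream (3.30, in neither replicate list). Eomes, Mixl1, Foxa2, Sox17, Fgf8 and Wnt3 had none. By whole-series signal, 3 of the 36, namely Skil, Gdf3 and Inhbb, had a stronger peak than Nodal. None had one as strong as the Lefty locus in that list. The Skil peak was below the Lefty1 proximal peak in replicate 1 (13.69 and 16.18) and above it in replicate 2 (34.01 and 31.74).

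**Figure D5:**
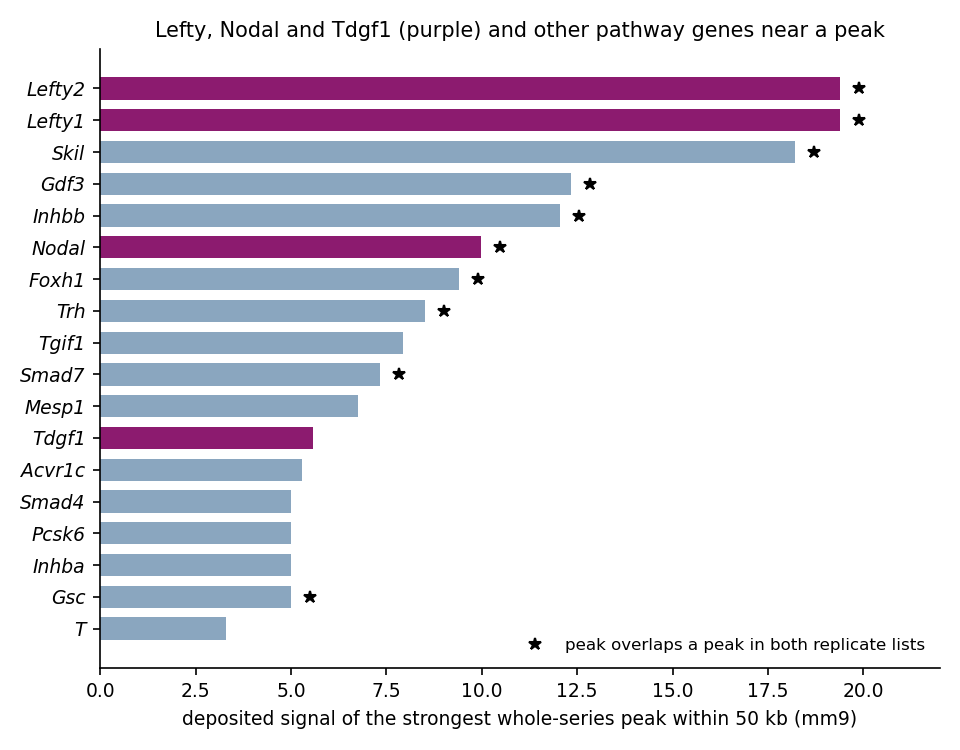
Deposited signal of the strongest whole-series mm9 peak within 50 kb (horizontal axis) for the 4 genes (purple) and the 14 of 36 other pathway genes with one (blue); stars mark peaks found in both replicate lists. The Lefty bars, which are 1 shared peak, reach 19.38, followed by Skil at 18.21, and Tdgf1 at 5.58 has no star.

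The peaks most like those of the 4 genes were sought by the distance in log2 signal over the mm9 lists that hold the peak. The profile of the Lefty1 proximal peak was closest to peaks next to Slain2 (distance 0.036, 11.8 kb from its start), Sox2 (0.07, 3.91 kb) and Zfp384 (0.107, 346 bp), of 1208 candidates. That of the Nodal peak was closest to peaks whose nearest genes were Car2 (0.061, at 171 kb), Fggy (0.064, at 48.1 kb) and Casp12 (0.064, at 67.2 kb). For Tdgf1, 60 peaks had exactly its signals in the whole-series and replicate 2 lists, so none is singled out. These likenesses are in signal height over at most 3 lists of the same 2 replicates, and say nothing of function.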

How the data were processed

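POU5F1 ChIP-seq peak lists of 2 biological replicates (1 technical replicate each) were used. The aligner, the caller of peaks, its thresholds and the making of the whole-series mm9 list are not given in the sources used here. A control experiment that the labels name was not analysed here. Signal is the value deposited by the authors, of unstated scaling. The deposited mm9 lists also give a −log10 p-value and a q-value per peak, and the deposited mm10 lists a −log10 q-value and a score, both left unused. No read counts were used, so depth is unknown, and shares carry 95% Clopper-Pearson intervals that cover counting error only.

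Peaks were assigned within 50 kb of any transcript start, from the peak centre on mm9 (NCBIM37, GENCODE M1) and from the summit on mm10. Starts on mm10 came from the RefSeq promoter table of GRCm38.p6, which covered 2 of the 4 genes, and for Lefty1 and Lefty2 from RefSeq gene bodies with the GENCODE strand. Coordinates were never converted. Sequences were read from NCBIM37. Motif and overlap scripts were tested on simulated data. Python 3.11.15, pandas 2.3.3, SciPy 1.17.1, samtools 1.23.1 and BLASTN 2.17.0 were used.

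The genes, lists and motifs were chosen with earlier results of these data known. Named were the 4 genes, the pathway genes with a peak, the genes nearest to the 3 peaks most like each strongest peak, and Pou5f1, Sox2 and Nanog. Genes withheld from the text are not reported here. With 1 group there was no test between groups. Alternatives varied the window, the distance measure, transcripts, p-value minimum, overlap, motif limits and replicates.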

Additional observations from a re-analysis of the deposited data

How the results depend on the processing

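Of 38 alternatives, 32 left the value within 1.5 times that given and 6 moved it further. With a window of 10 kb the peaks near the 4 genes fell from 5 to 3, because the Lefty1 distal peak lies at 10094 bp and the Tdgf1 peak at 14229 bp, and the other pathway genes near a peak went from 14 to 6. With only 1 replicate list used in place of the whole series, the peaks were 4 to 5, the genes 3 to 4 and the pathway genes 8 to 15, the lower values all from replicate 1. POU motif matches were in 1 of the 5 peaks, in 3 with 1 mismatch allowed in the octamer, and in 0 within 100 bp on each side of the centre, since the octamer lies 126 bp from it. The Nodal peak went from rank 389 to rank 599 by −log10 p. The count of 4 peaks in both replicate lists was the same with a reciprocal overlap of 50% and with the replicate 2 list kept to its strongest peaks, and the conservative mm10 list gave the 4 peaks of the optimal list. Only 2 replicates of 1 cell line enter, and no depth was known. No paired analysis was possible because the series holds 1 group.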
